A study of Caenorhabditis elegans with 12 samples.

Results

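The troponin genes of Caenorhabditis elegans were followed in whole-worm RNA of wild type and of 2 strains with temperature-sensitive alleles of fer-1. The set was a list of 10 genes, matched by symbol to the annotation of the array: mup-2, tnt-2, tnt-3 and tnt-4 for troponin T, tni-1, tni-2, tni-3 and tni-4 for troponin I, and pat-10 and tnc-2 for troponin C. Of the 10 symbols, 9 had a probe set of their own, among 17118 genes that did. The symbol tni-2 had none. The gene known by that name in the literature is listed as unc-27, and its values are given beside the others but are left out of counts of 9. Together these genes had 12 probe sets, and all 12 were bright enough to be tested.

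Wild type was strain N2, hc1 was strain BA1 with fer-1(hc1ts) and hc24 was strain BA24 with fer-1(hc24ts). All animals were grown from synchronised L1 larvae to young adults at 25 °C, and 1000 sorted adults were pooled for each sample. Each group had 4 arrays of separate biological replicates. The submitters made 6 preparations per genotype and kept the 4 that correlated best, so the spread shown here is narrower than that among all preparations, and p-values are too small by an unknown amount. fer-1 encodes a ferlin needed for sperm maturation. Its probe set lay at 1.46 to 1.48 on all 12 arrays, the floor of the measurement, and could not check the genotypes.

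Troponin is the calcium switch of the thin filament in striated muscle. Troponin C binds calcium, troponin I holds actin and myosin apart in its absence, and troponin T ties the complex to tropomyosin. In C. elegans the genes are divided between muscles: tnt-4, tni-4 and tnc-2 are known from the pharynx, the feeding pump, and the others from body wall and other non-pharyngeal muscles. In whole-worm RNA, fewer muscle cells, less RNA per muscle cell and a different share of other tissues or stages cannot be told apart.

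Values are the deposited log2 levels, given array by array in the order of the replicate numbers, and an adjusted p is from limma with Benjamini-Hochberg adjustment over 11833 probe sets (two-sided, called when under 0.05). Levels are compared between groups for 1 gene. Where genes are paired on an array, the difference is set to 0 in wild type, so that it shows unequal change and not which gene has more RNA. As markers of body wall muscle, the myosin genes unc-54 and myo-3 lay at 11.5 to 13.1 and at 7.94 to 9.76 over the 12 arrays, while the muscle factor gene hlh-1 reached 4 on 1 array. As markers of the pharynx, the myosin gene myo-1 lay at 5.69 to 6.41, myo-2 stayed at 2.73 to 3.30, and the factor gene ceh-22 reached 4 on 3 arrays, with a highest value of 7.20. Over all tested probe sets, the median difference from wild type was 0.14 for hc1 and 0.12 for hc24, and hc1 minus hc24 had a median of 0.07. These medians became 0.40, 0.38 and 0.07 when arrays were centred on their medians, and -0.03, -0.00 and 0.03 after cyclic loess. Among called probe sets, the higher ones made up 62.5% for hc1 and 63.5% for hc24 as deposited. Centring on medians made this 76.5% and 80.4%, and cyclic loess made it 44.0% and 45.5%.

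The alleles divided the troponin genes. In hc1, 8 of the 9 genes fell, and the exception was tni-4 of the pharynx. In hc24, 4 fell (tnt-3, tni-1, tnt-4 and pat-10), 4 did not pass and tni-4 was called higher. Between the mutants, 7 of the 9 were lower in hc1 than in hc24, by up to 2.57-fold for mup-2, while tnt-3 and tnt-4 did not pass. unc-27 fell in hc1, did not pass in hc24 and was lower in hc1 than in hc24. Among all probe sets, 25.9% were called lower and 43.3% higher in hc1, 21.7% lower and 37.7% higher in hc24, and 12.2% lower and 18.6% higher in hc1 than in hc24. The median log2 difference of the 9 genes was -1.02 in hc1 and -0.26 in hc24, beside 0.14 and 0.12 over all probe sets, and -0.45 between the mutants beside 0.07. Both mutants were set against the same 4 wild type arrays.

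**Figure D1:**
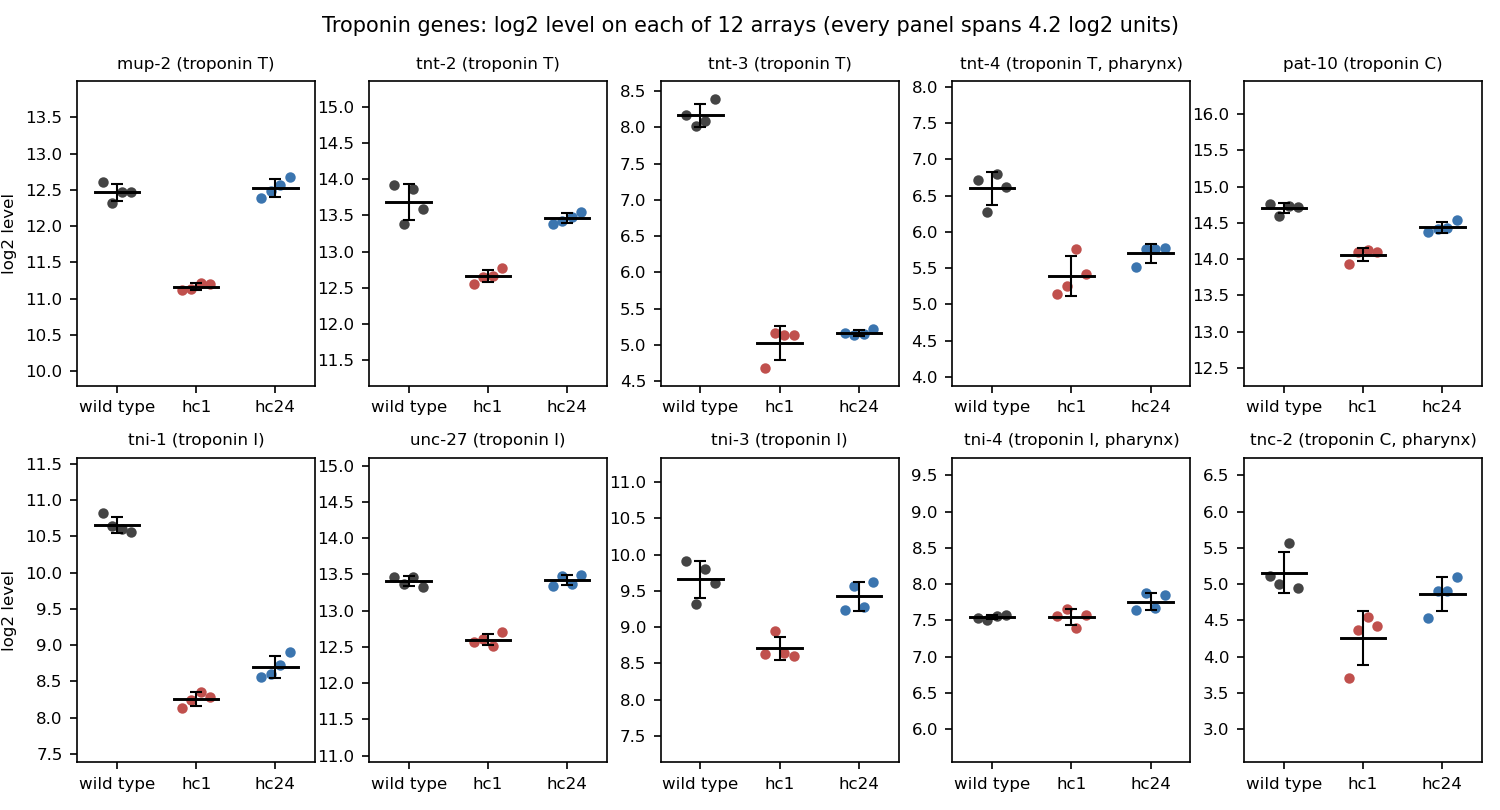
Log2 level of each troponin gene (y axis) on each array (points), by group (x axis), with the mean (long bar) and SD (error bar, n = 4); panels cover different levels but the same span, and unc-27 stands for tni-2. The tnt-3 arrays lie at 8.03 to 8.39 in wild type and at 4.67 to 5.22 in both mutants, whereas the mup-2 arrays of hc24 overlap those of wild type.

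Among the troponin T genes, tnt-3 had the lowest level relative to wild type in both mutants. Its log2 level was 8.17, 8.03, 8.08 and 8.39 in wild type, 4.67, 5.16, 5.14 and 5.14 in hc1, and 5.16, 5.14, 5.15 and 5.22 in hc24. No mutant array came within 2 log2 units of wild type, and 7 of the 8 mutant arrays lay within 0.09 of each other. The level thus fell 8.81-fold in hc1 (log2 difference -3.14 ± 0.11, SE, adjusted p = 2.32e-10) and 8.01-fold in hc24 (-3.003 ± 0.11, SE, adjusted p = 3.18e-10). The mutants differed by -0.14, with a 95% interval of -0.38 to 0.11 (adjusted p = 0.389), and by -0.018 without hc1 replicate 1 (adjusted p = 0.907). Ranked from the largest fall among the 11833 probe sets, tnt-3 was number 124 in hc1 and number 232 in hc24.

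mup-2, whose name comes from the misplaced muscles of its mutants, behaved otherwise. It was at 12.61, 12.33, 12.47 and 12.47 in wild type, at 11.11, 11.13, 11.22 and 11.20 in hc1 and at 12.38, 12.48, 12.57 and 12.68 in hc24. The hc1 arrays lay below all others, and those of hc24 overlapped wild type. mup-2 fell 2.46-fold in hc1 (log2 difference -1.30 ± 0.08, SE, adjusted p = 2.88e-08) and was 2.57-fold lower in hc1 than in hc24 (-1.36 ± 0.08, SE, adjusted p = 1.47e-07). Against wild type, hc24 differed by 0.06 (95% interval -0.11 to 0.23, adjusted p = 0.517), which turned to -0.10 with cyclic loess (adjusted p = 0.349) and passed as higher with median centring (0.31, adjusted p = 0.00171).

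tnt-2 was at 13.91, 13.38, 13.87 and 13.58 in wild type, at 12.56, 12.66, 12.67 and 12.77 in hc1 and at 13.39, 13.43, 13.48 and 13.55 in hc24. It fell 2.03-fold in hc1 (adjusted p = 4.6e-06) and was 1.74-fold lower there than in hc24 (adjusted p = 0.000144). In hc24 its log2 difference from wild type was -0.23 (95% interval -0.46 to 0.01, adjusted p = 0.0884). Single wild type arrays moved it both ways. Without replicate 4, the lowest, it was -0.33 and passed (adjusted p = 0.00811), and without replicate 3 or 5 it was -0.15 or -0.17 (adjusted p = 0.247 and 0.23). It also passed with cyclic loess (-0.38, adjusted p = 0.016) and with array weights (-0.25, adjusted p = 0.0335), and with median centring it was 0.03 (adjusted p = 0.812).

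tnt-4, the troponin T gene of the pharynx, was low in both mutants. Its level was 6.72, 6.28, 6.80 and 6.62 in wild type, 5.14, 5.25, 5.77 and 5.42 in hc1, and 5.51, 5.76, 5.77 and 5.78 in hc24. Both mutant groups lay below wild type and overlapped each other. tnt-4 fell 2.31-fold in hc1 (log2 difference -1.21 ± 0.14, SE, adjusted p = 1.07e-05) and 1.86-fold in hc24 (-0.90 ± 0.14, SE, adjusted p = 0.00017). The mutants differed by -0.31 (95% interval -0.62 to -0.00, adjusted p = 0.117), which passed without hc1 replicate 5 (-0.44, adjusted p = 0.0252).

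Among the troponin I genes, tni-1 fell in both mutants. It was at 10.82, 10.64, 10.61 and 10.56 in wild type, at 8.14, 8.24, 8.36 and 8.28 in hc1 and at 8.56, 8.61, 8.73 and 8.91 in hc24. The 3 groups did not overlap, with wild type above hc24 and hc24 above hc1. The fall was 5.29-fold in hc1 (log2 difference -2.40 ± 0.09, SE, adjusted p = 3.16e-10) and 3.89-fold in hc24 (-1.96 ± 0.09, SE, adjusted p = 1.74e-09), and hc1 was 1.36-fold lower than hc24 (adjusted p = 0.00227).

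unc-27, the gene known as tni-2, is a troponin I gene of body wall muscle whose mutants move poorly. Its level was 13.46, 13.37, 13.46 and 13.32 in wild type, 12.57, 12.61, 12.52 and 12.71 in hc1, and 13.35, 13.48, 13.37 and 13.49 in hc24. As for mup-2, the hc1 arrays lay apart below and the hc24 arrays overlapped wild type. unc-27 fell 1.75-fold in hc1 (adjusted p = 4.39e-07) and was 1.77-fold lower there than in hc24 (adjusted p = 2.12e-06). The difference of hc24 from wild type was 0.02 (95% interval -0.12 to 0.16, adjusted p = 0.828). Its sign was negative with cyclic loess (-0.14, adjusted p = 0.128), and with median centring it passed as higher (0.27, adjusted p = 0.00213).

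tni-3 was at 9.91, 9.32, 9.80 and 9.61 in wild type, at 8.63, 8.94, 8.65 and 8.61 in hc1 and at 9.23, 9.57, 9.27 and 9.62 in hc24. It fell 1.94-fold in hc1 (adjusted p = 5.26e-05) and was 1.64-fold lower there than in hc24 (adjusted p = 0.00161). For hc24 the difference from wild type was -0.24 (95% interval -0.53 to 0.06, adjusted p = 0.148). Without wild type replicate 3 it was -0.16 (adjusted p = 0.359). It passed without wild type replicate 4 (-0.35, adjusted p = 0.0281) and with cyclic loess (-0.38, adjusted p = 0.0426), and with median centring it was 0.01 (adjusted p = 0.919). A dimmer probe set of tni-3, of the kind whose probes can match unrelated transcripts, gave a smaller fall of 1.23-fold in hc1 (adjusted p = 0.011) and did not pass between the mutants (-0.21, adjusted p = 0.103).

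tni-4, the troponin I gene of the pharynx, did not follow the others. It was at 7.54, 7.51, 7.55 and 7.58 in wild type, at 7.56, 7.66, 7.40 and 7.57 in hc1 and at 7.64, 7.88, 7.67 and 7.85 in hc24. The wild type arrays lay inside the range of hc1, and those of hc24 lay above wild type. In hc1 the log2 difference was 0.00 (95% interval -0.16 to 0.16, adjusted p = 0.989), turned to -0.12 with cyclic loess (adjusted p = 0.17) and passed as higher with median centring (0.25, adjusted p = 0.00742). In hc24 tni-4 was 1.16-fold higher (adjusted p = 0.0261), a call lost in 8 of 22 alternatives, among them cyclic loess (0.13, adjusted p = 0.165), the fit without wild type replicate 3 (adjusted p = 0.0506) or 4 (adjusted p = 0.0531), and that without hc24 replicate 2 (adjusted p = 0.0804) or 5 (adjusted p = 0.0676). The call between the mutants (-0.21, adjusted p = 0.0479) was lost in 14 of 22 alternatives, 9 of which left out 1 array.

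pat-10, the troponin C gene of body wall muscle, fell in both mutants by different amounts. Its brighter probe set was at 14.76, 14.60, 14.74 and 14.72 in wild type, at 13.93, 14.09, 14.13 and 14.10 in hc1 and at 14.37, 14.41, 14.43 and 14.55 in hc24, with no overlap between groups. The fall was 1.56-fold in hc1 (log2 difference -0.64 ± 0.07, SE, adjusted p = 4.47e-06) and 1.20-fold in hc24 (-0.26 ± 0.07, SE, adjusted p = 0.00501), and hc1 was 1.298-fold lower than hc24 (adjusted p = 0.00111). With median centring the hc24 call was lost (-0.01, adjusted p = 0.876). The dimmer probe set gave 1.86-fold in hc1 (adjusted p = 3.42e-06), 1.20-fold in hc24 (adjusted p = 0.0278) and 1.56-fold between the mutants (adjusted p = 0.00022).

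tnc-2, the troponin C gene of the pharynx, lay close to the limit of 4 used for testing. Its level was 5.11, 5.01, 5.57 and 4.94 in wild type, 3.71, 4.37, 4.54 and 4.42 in hc1, and 4.54, 4.90, 4.91 and 5.10 in hc24. It fell 1.86-fold in hc1 (log2 difference -0.90 ± 0.19, SE, adjusted p = 0.00119), and in hc24 the difference was -0.29 (95% interval -0.71 to 0.12, adjusted p = 0.202). Without hc24 replicate 1 that difference was -0.19 (adjusted p = 0.445), and without wild type replicate 5 it was -0.16 (adjusted p = 0.497). The highest hc1 array reached the lowest of hc24, and the call between the mutants (-0.60, adjusted p = 0.0308) was lost without hc1 replicate 1 (-0.42, adjusted p = 0.0785), without hc24 replicate 2, 3 or 5 (adjusted p = 0.0649, 0.0677 and 0.0824) and when dim probe sets were kept in the fit (adjusted p = 0.0855).

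**Figure D2:**
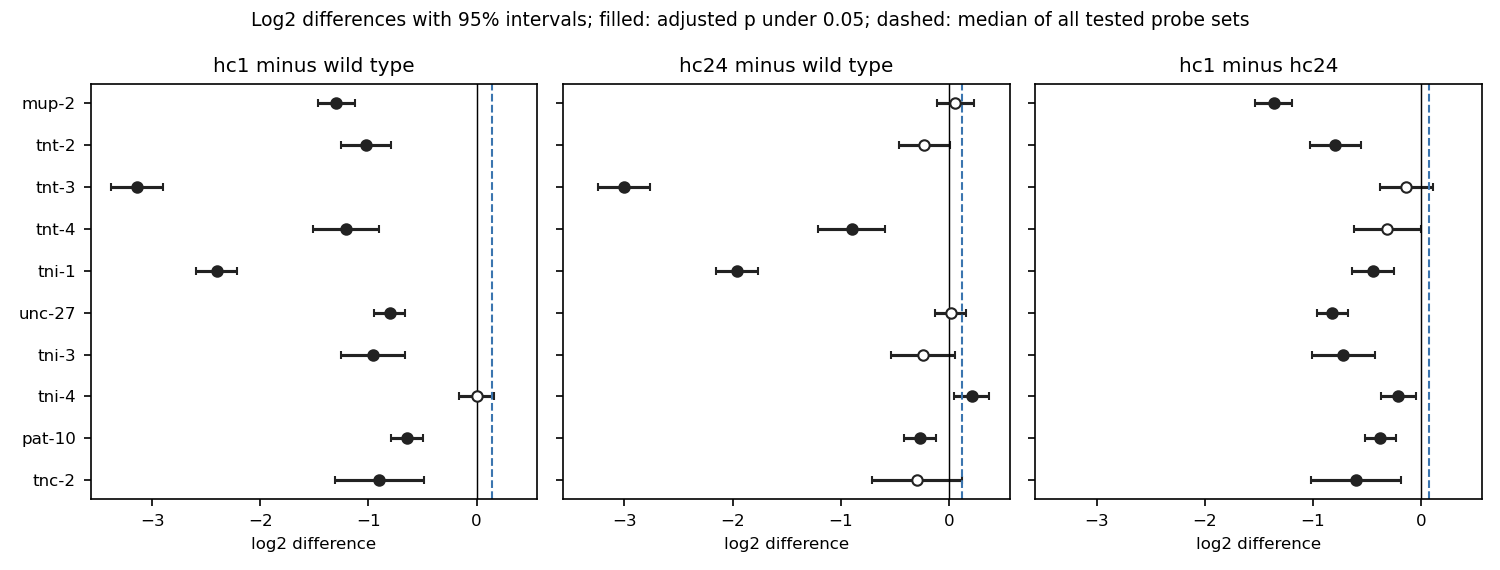
Log2 differences of the 10 genes (points, x axis) with 95% intervals (bars) in 3 comparisons; filled points passed at an adjusted p under 0.05, and the dashed line is the median of all tested probe sets. tnt-3 and tni-1 lie at -3.14 and -2.40 in hc1 and at -3.003 and -1.96 in hc24, while mup-2 and unc-27 lie at -1.30 and -0.80 in hc1 and at 0.06 and 0.02 in hc24.

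A constant added to all log2 values of an array cancels when genes are compared on the same array, so the balance within a troponin class does not depend on scaling of that kind. With the wild type mean set to 0, mup-2 minus tnt-3 lay between -0.23 and 0.14 in wild type, between 1.67 and 2.14 in hc1 and between 2.93 and 3.16 in hc24. The balance of these troponin T genes thus shifted towards mup-2 in both mutants, and further in hc24 than in hc1. For tni-1 minus unc-27 the ranges were -0.11 to 0.11 in wild type, -1.68 to -1.42 in hc1 and -2.12 to -1.84 in hc24, a shift away from tni-1. tni-1 minus tni-3 gave -0.20 to 0.32, then -1.69 to -1.29 and -1.96 to -1.54. tnt-2 minus tnt-3 lay at -0.33 to 0.27 in wild type, at 1.98 to 2.36 in hc1 and at 2.71 to 2.81 in hc24. The pharyngeal genes gave shifts of like direction against tnt-3 and tni-1. tnt-3 minus tnt-4 lay at -0.28 to 0.21, -2.19 to -1.66 and -2.19 to -1.92, and tni-1 minus tni-4 at -0.13 to 0.17, -2.53 to -2.16 and -2.38 to -2.05. These are descriptions of single arrays, without a test.

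Pairs with neither tnt-3 nor tni-1 had smaller mean shifts, but some of these pairs still lay apart from wild type. The balance of unc-27 and tni-3 lay at -0.19 to 0.31 in wild type, at -0.07 to 0.36 in hc1 and at 0.13 to 0.37 in hc24, so that all groups overlapped. For pat-10 minus tnc-2 the ranges were -0.38 to 0.23, 0.05 to 0.67 and -0.10 to 0.29, again with overlap. mup-2 minus tnt-4 lay at -0.20 to 0.18 in wild type and at -0.41 to 0.11 in hc1, but at 0.86 to 1.04 in hc24. In hc24 the balance thus lay apart, towards mup-2, a body wall gene, and away from tnt-4 of the pharynx. tnt-2 minus tnt-4 lay at -0.12 to 0.11 in wild type, -0.18 to 0.33 in hc1 and 0.58 to 0.79 in hc24. For tni-3 minus tni-4 the ranges were -0.30 to 0.26, -1.08 to -0.83 and -0.52 to -0.34. Those of unc-27 minus tni-4 were -0.12 to 0.07, -0.91 to -0.72 and -0.26 to -0.15. mup-2 minus tnt-2 shifted in opposite directions, with -0.19 to 0.17, -0.35 to -0.22 and 0.22 to 0.35.

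**Figure D3:**
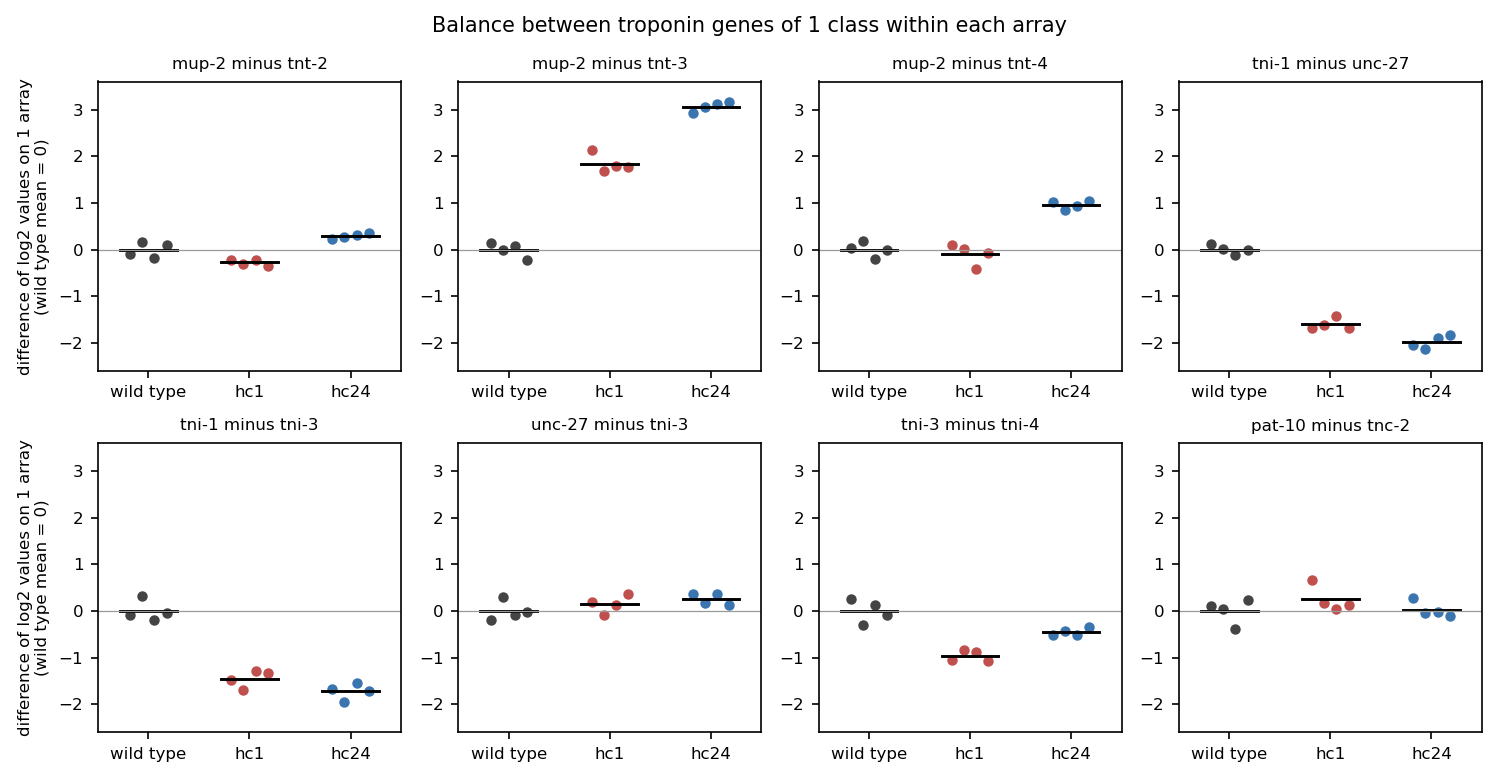
Difference between the log2 values of a pair of troponin genes on the same array (points, y axis, wild type mean set to 0), by group (x axis), with group means (bars); 8 of 13 pairs within a class are shown. The hc24 arrays lie at 2.93 to 3.16 for mup-2 minus tnt-3 and at -2.12 to -1.84 for tni-1 minus unc-27, whereas the groups overlap for unc-27 minus tni-3.

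The 3 genes whose levels over the 12 arrays were most like each troponin gene were sought among 8743 tested genes, as a description, since group differences that many genes share weigh heavily in such a correlation. For tnt-3 they were asd-2, T19A5.3 and unc-3 (Pearson r of 0.996, 0.996 and 0.995). For mup-2 they were acp-6, hrg-7 and elo-2 (0.989, 0.988 and 0.987), and for tnt-2 they were unc-87, a thin filament protein gene, col-107 and egl-3 (0.991, 0.987 and 0.986). tnt-4 was most like txt-14, unc-23 and kel-8 (0.970, 0.970 and 0.968). Among the troponin I genes, tni-1 had mps-2, aagr-4 and D1005.2 (0.992, 0.990 and 0.990), and unc-27 had W06A7.2, mup-2 and acp-6 (0.992, 0.986 and 0.986). The nearest to tni-3 were csq-1, the calsequestrin gene of the calcium store, mlc-3, a myosin light chain gene, and lec-2 (0.982, 0.980 and 0.976). Those of tni-4 were B0303.11, spig-1 and C45E5.1, at the lower values of 0.942, 0.929 and 0.878. pat-10 had atf-4, tln-1, the talin gene of muscle attachments, and dct-18 (0.986, 0.983 and 0.983), and tnc-2 had cut-4, ZK84.1 and F22E5.13 (0.935, 0.914 and 0.912).

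Partners of troponin in the sarcomere were read from lists chosen, like the troponin genes, with earlier results of these data known. Of 10 tested thin filament partners, 4 fell and 1 rose in hc1 (median -0.08), and 1 fell in hc24 (median -0.15). Among all probe sets, 25.9% fell and 43.3% rose in hc1, and 21.7% fell and 37.7% rose in hc24. lev-11, the tropomyosin gene, fell 1.76-fold in hc1 (adjusted p = 2.48e-06) and differed from wild type by -0.11 in hc24 (adjusted p = 0.254). unc-87, which encodes a calponin-related actin bundler, fell 1.92-fold in hc1 (adjusted p = 5.68e-06), and unc-94, the tropomodulin gene, rose 1.22-fold (adjusted p = 0.00811). In hc24 the capping protein gene cap-1 fell 1.16-fold (adjusted p = 0.0262). lev-11 and unc-87 were lower in hc1 than in hc24 (log2 differences -0.70 and -0.78, adjusted p = 3.66e-05 and 0.000116), as was the case for mup-2 and unc-27. act-1 and act-2, both actin genes, had no probe set of their own.

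Of 14 tested genes of the thick filament and sarcomere, 12 fell in hc1 (median -0.96). In hc24, 8 fell and 1 rose (median -0.30). unc-82, a kinase gene of the sarcomere, fell 2.04-fold in both (adjusted p = 4.62e-07 and 5.14e-07), and the myosin light chain gene mlc-1 fell 2.25-fold in hc1 (adjusted p = 6.8e-07). In hc24 mlc-1 differed by -0.06 (adjusted p = 0.627). unc-54, the major body wall myosin gene, moved in opposite directions: it fell 1.64-fold in hc1 (adjusted p = 5.06e-05), rose 1.50-fold in hc24 (adjusted p = 0.000337) and was 2.47-fold lower in hc1 than in hc24 (adjusted p = 1.79e-06). Of 15 genes of muscle attachment 14 fell in hc1 (median -1.04) and 10 in hc24 (median -0.57), among them tln-1 by 3.29-fold (adjusted p = 4.11e-08) and pat-2, an integrin gene, by 3.28-fold in hc1 (adjusted p = 1.08e-07), and deb-1, the vinculin gene, by 2.04-fold in hc24 (adjusted p = 4.19e-06). In the other mutant these genes fell too, tln-1 by 1.58-fold and pat-2 by 1.88-fold in hc24 (adjusted p = 0.000224 and 3.66e-05) and deb-1 by 2.35-fold in hc1 (adjusted p = 7.02e-07). Between the mutants, 9 of the 14 sarcomere genes and 8 of the 15 attachment genes were lower in hc1, and 1 sarcomere gene, unc-45, was higher. Of all probe sets, 12.2% were lower and 18.6% higher in this comparison.

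Genes of calcium supply, removal and sensing moved both ways, as did all probe sets. Of 14 tested calcium genes, 5 fell and 4 rose in hc1 (median -0.13), and 4 fell and 3 rose in hc24 (median 0.07). The shares of all probe sets were 25.9% lower and 43.3% higher in hc1, and 21.7% lower and 37.7% higher in hc24. egl-19, the calcium channel gene of muscle, fell 5.24-fold in hc1 (adjusted p = 4.18e-08) and 5.36-fold in hc24 (adjusted p = 3.59e-08). The egl-19 means in hc1 and hc24, 4.15 and 4.12, lay close to the limit of 4 used for testing, which limits these folds. unc-36, an auxiliary channel subunit gene, fell 2.81-fold and 2.72-fold (adjusted p = 2.26e-08 and 3e-08). ncx-1, a sodium-calcium exchanger gene, rose 1.20-fold in hc1 (adjusted p = 0.0117) and 2.03-fold in hc24 (adjusted p = 3.12e-07). sca-1, the calcium pump gene of the store, rose 1.20-fold in hc24 (adjusted p = 0.0192) and 1.21-fold in hc1 (adjusted p = 0.0147).

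Of 9 listed muscle transcription factor genes 5 were tested, while hlh-1, hlh-8, mls-1 and ceh-22 were not bright enough on enough arrays. All 5 tested fell in hc1 (median -1.52) and 4 of them in hc24 (median -1.67). unc-120, a serum response factor gene that acts in body wall muscle, fell 8.65-fold in hc1 (adjusted p = 1.62e-10) and 7.79-fold in hc24 (adjusted p = 2.38e-10), and pha-4, the pharyngeal organ identity gene, fell 6.47-fold and 6.997-fold (adjusted p = 6.91e-09 and 4.3e-09). Between the mutants unc-120 differed by -0.15 (adjusted p = 0.311) and pha-4 by 0.11 (adjusted p = 0.588).

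**Figure D4:**
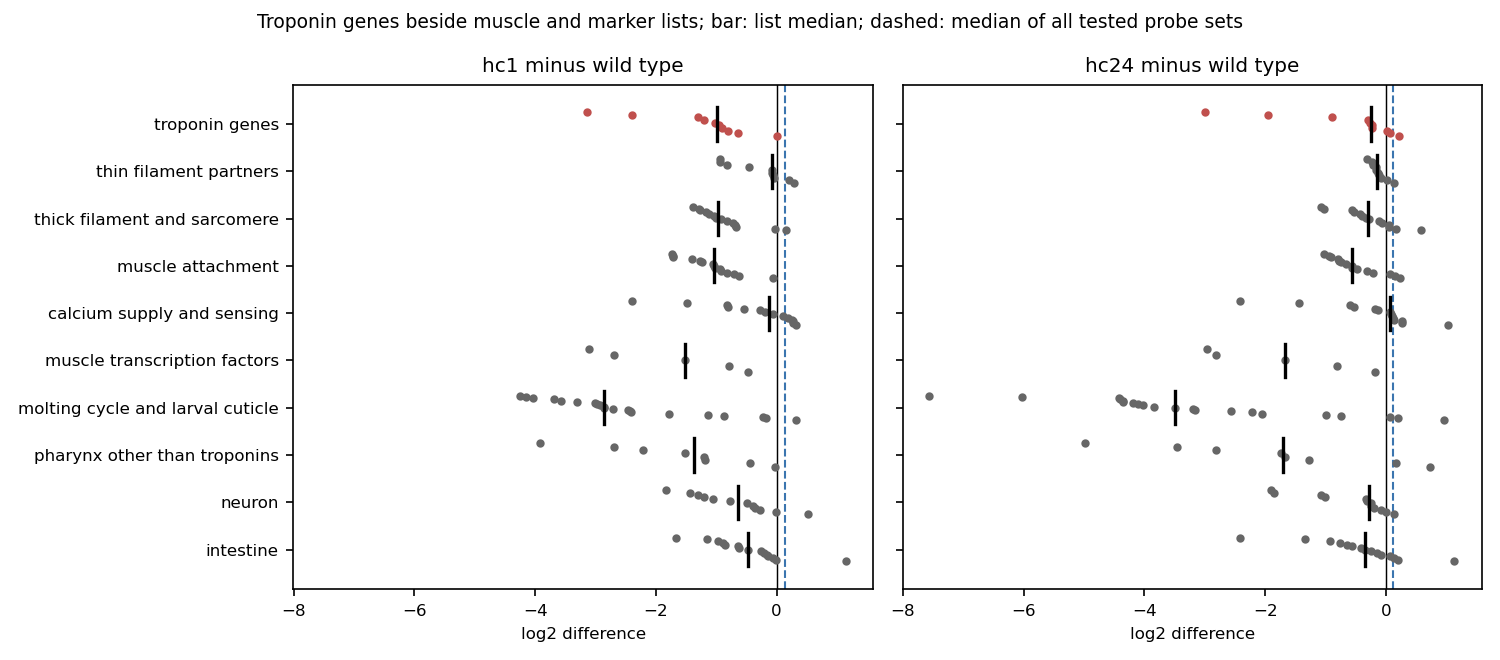
Log2 differences (x axis) of the 10 troponin genes and of the tested genes of 9 lists (points, 1 row per list) in hc1 and hc24 against wild type; bars are list medians and the dashed line is the median of all tested probe sets. Medians of the sarcomere and attachment lists lie at -0.96 and -1.04 in hc1 and at -0.30 and -0.57 in hc24, and the molting list lies lower, at -2.86 and -3.49.

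Markers of stage and of other tissues also differed between the groups, some lists mostly lower in the mutants and others mostly higher. Their counts stand beside 25.9% lower and 43.3% higher of all probe sets in hc1, and 21.7% and 37.7% in hc24. Of 21 tested genes of the molting cycle and larval cuticle, 18 fell and 1 rose in each mutant (medians -2.86 in hc1 and -3.49 in hc24). The filter could admit a gene through the groups where it was high, which largely sets its direction. In this list mlt-9, ptr-4, wrt-4 and cut-5 had means above 4 in wild type alone. The mean log2 level of the 21 genes was 8.82 to 9.21 on wild type arrays, 6.45 to 6.62 in hc1 and 5.84 to 5.97 in hc24. It was lower in hc24 than in hc1, the reverse of the order for most troponin genes. Of 11 genes listed as early embryonic, each mutant had 7 that rose and 4 that fell (end-1, sdz-6, hch-1 and ceh-36). Mean levels of the 11 genes, which mix the 2 directions, were 5.00 to 5.16 in wild type, 7.91 to 8.07 in hc1 and 7.31 to 7.47 in hc24. Here pes-10, tbx-37, tbx-43, dct-13 and pap-3 had wild type means under 4, and ceh-36 had means under 4 in both mutants. The part of these lists in the troponin differences was not tested.

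Of 15 oocyte and eggshell genes 12 rose in hc1, and in hc24 8 rose and 1 fell, with mean levels of 13.22 to 13.44 in wild type, 13.68 to 13.76 in hc1 and 13.53 to 13.61 in hc24. Of 12 neuronal genes, 9 fell and 1 rose in hc1 and 8 fell in hc24, with mean levels of 8.04 to 8.39, 7.38 to 7.58 and 7.58 to 7.65. Of 15 intestinal genes, 8 fell in hc1 and 9 in hc24, 1 rose in each, with mean levels of 12.06 to 12.34, 11.68 to 11.75 and 11.72 to 11.78. Outside the troponins, 8 of 18 listed pharyngeal genes were tested. Of these, 6 fell in each mutant, among them pha-4 of the muscle factor list, and 1 rose in hc24. abu-6, which fell in both, had a mean above 4 in wild type alone. The pharyngeal myosin gene myo-1 did not pass, with -0.03 in hc1 (adjusted p = 0.8) and 0.16 in hc24 (adjusted p = 0.224). The mean levels of the 8 genes were 7.01 to 7.45, 5.53 to 5.83 and 5.17 to 5.63, and their part was likewise not tested.

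Sperm genes separated the alleles. Their mean level was 5.30 to 6.30 in wild type, 8.80 to 9.04 in hc24, 8.52 on hc1 replicate 2 and 4.99 to 5.71 on the 3 other hc1 arrays. In hc24 21 of 22 rose, and in hc1 1 rose, spe-6, named after its value was seen. Of the 22, 20 are major sperm protein (msp) genes, a family of near-identical copies, on probe sets whose probes can match other transcripts, so these are not 20 separate measurements. Among the troponin genes, hc1 replicate 2 stood apart for tni-3, at 8.94 above the other hc1 arrays. Without it, 8 of 9 fell in hc1 as before, and mup-2 remained lower in hc1 than in hc24 (log2 difference -1.35, adjusted p = 9.46e-07).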

How the data were processed

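Whole-worm RNA was measured on 12 Affymetrix C. elegans arrays, 4 for each of 3 genotypes. The deposited values are log2 levels, made by the authors with Affymetrix Expression Console and GCRMA, per the submitters' processing notes. Tool versions were not given in the sources used here. GCRMA corrects background by probe sequence and brings arrays to a common distribution, which can hide a shift shared by most genes and compress low values.

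From these values, 77 control probe sets of 22625 were left out, and the 11833 of 22548 others with a log2 level of at least 4 on at least 4 arrays were tested. With 4 arrays per group, a probe set could pass through the groups where it was high, which largely sets the direction of its difference. limma 3.58.1 in R 4.3.3 was fitted over all 3 groups, with Benjamini-Hochberg adjustment and a threshold of 0.05 on the adjusted p, and was checked on simulated data. A gene was read from its brightest probe set with 1 gene symbol. Members and lists were chosen with earlier results of these data known. All troponin genes are named, with at most 2 lower and 2 higher partner genes per list and mutant by smallest adjusted p. Some partners are also given in a comparison that did not name them. unc-45 was named, and the differences of myo-1 were given, after their values were seen. abu-6 and the genes named within the molting, early embryonic and sperm lists were also named after their values were seen. Over all tested probe sets, deviations of arrays sharing a replicate number correlated at -0.07 to 0.08, and the main fit did not pair arrays. Such a correlation cannot show whether a smaller set of genes shared an effect of that number. Filters, scaling, variance model, arrays, replicate block and probe set rule were varied. The number of arrays limits the precision.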

Additional observations from a re-analysis of the deposited data

Results flagged for a closer look

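Of 30 groups of 4 arrays checked, 3 had an array that stood apart, where chance gives about 1 in 20. The distance of that array to its nearest neighbour, as a share of the group's range, was 0.966 for tnt-3 in hc1, whose lowest array was replicate 1, 0.956 for tnt-4 in hc24, whose lowest array was at 5.51, and 0.874 for tni-3 in hc1, whose highest array was at 8.94.

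The mutants differed from each other by the limma contrast of hc1 minus hc24 in 8 genes, all lower in hc1. The log2 difference was -1.36 for mup-2, -0.82 for unc-27, -0.80 for tnt-2 and -0.72 for tni-3. It was -0.60 for tnc-2, -0.45 for tni-1, -0.38 for pat-10 and -0.21 for tni-4. Of all probe sets 12.2% were called lower in this comparison.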

How the results depend on the processing

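In hc1, the 8 troponin genes that fell and unc-27 kept their call in all 22 alternatives, as did tnt-3, tnt-4 and tni-1 in hc24. Leaving out each array in turn gave 8 troponin genes called in hc1, 4 to 6 in hc24 and 5 to 7 between the mutants, and 7630 to 8253, 6378 to 7072 and 2886 to 3804 of all probe sets. Without the filter 12514 probe sets were called in hc1, against 8194, with more probe sets tested. With unc-27 counted as a member, an alternative chosen after seeing the data, 9 of 10 were called in hc1, 5 in hc24 and 8 between the mutants.

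Values near 0 changed sign. For tni-4 in hc1 the log2 difference was -0.12 with cyclic loess, -0.001 with array weights and -0.035 to 0.0497 when arrays were left out. In hc24, cyclic loess gave -0.10 for mup-2 and -0.14 for unc-27, median centring gave 0.025 for tnt-2 and 0.014 for tni-3, and leaving out arrays gave -0.01 to 0.043 for unc-27. The cause was not tested.

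The replicate number was also used as a block, although arrays sharing a number did not deviate together over all tested probe sets. With it, 8, 6 and 6 troponin genes and 7353, 6508 and 2997 of all probe sets were called in hc1, in hc24 and between the mutants. In hc24 the block added tnt-2 (-0.30) and tni-3 (-0.42) and lost tni-4, whose value in hc1 became -0.051. Signal near the floor limits tnc-2, with 1 hc1 array under 4.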

Other observations

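Of the 10 genes, 5 lie on the X chromosome (mup-2, tnt-3, tnt-2, unc-27 and tni-1), 2 on V, and 1 each on I, II and IV. Of 1215 tested genes on X, 43.5% were called lower in hc1 and 37.5% in hc24, against 24.4% and 19.7% of 7501 autosomal genes. In hc1 against hc24, 207 of the 1215 X genes and 921 of the 7501 autosomal genes were called lower, a larger share on X. The closest neighbours among the troponin genes on X, tnt-2 and unc-27, have 10 protein-coding genes between them. tnt-2 differed from wild type by -0.23 and unc-27 by 0.02 in hc24.

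Within a group, single arrays moved many troponin genes together. Wild type replicate 4 lay below its group mean in 10 of 10 genes, counting unc-27, and in 28 of 29 genes of the sarcomere and attachment lists, beside 54.1% of all 8743 genes. hc24 replicate 1 lay below in 10 of 10 and in 24 of 29, beside 50.1%. hc1 replicate 1 lay below in 9 of 10 and in 22 of 29, beside 47.6%, and had the lowest mean deviation of the 10 genes among the 12 arrays (-0.17). hc24 replicate 5 lay above in 10 of 10 genes, and 13 of the 29 muscle genes lay below, beside 45.9% of all genes. Wild type replicate 3 lay above in 8 of 10 genes, and 1 of the 29 muscle genes lay below, beside 48.3% of all genes.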
